A study of Mus musculus with 6 samples.

Results

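Histone and DNA modifying enzymes are the writers and erasers of chromatin marks: enzymes that add or remove methyl groups on DNA and acetyl, methyl or ubiquitin groups on histone tails, with the subunits that hold their complexes together. The 56 genes described here were taken from a list by name, though the list was chosen with earlier results of these data known. Of these, 54 had at least 1 probe set whose annotation gave that gene alone, and 53 were tested, among 10810 tested genes in all. Suv39h1 and Ash1l were not analysed here for want of such a probe set. Sirt6 was below the level filter, with 2.52 to 2.82 in GFP_plus cells and 2.45 to 2.63 in GFP_min cells on the log2 scale, under the median of every array.

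Expression was measured on Affymetrix arrays in CD11b+Gr1+ myeloid cells sorted from hind leg marrow (femur and tibia). The donors were female HdcGFP mice on a C57BL/6 background, in which green fluorescent protein reports Hdc, the gene of the histamine-making enzyme histidine decarboxylase. GFP_plus cells were sorted for positive to high reporter signal (3 arrays, replicates a, b and c) and GFP_min cells for negative to low signal (3 arrays, replicates a, b and c). All 6 samples thus carry the reporter. Every sample is labelled Gr1+ as sorted, but the description of GFP_min replicate b reads Gr1-. Age, pooling and the number of mice are not given in the labels, so each p-value reflects sample-to-sample spread that may be no more than technical.

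Writers and erasers act in opposition on the same residues. DNMT enzymes methylate cytosine and TET enzymes oxidise that mark. Acetyltransferases loosen chromatin and histone deacetylases reverse this, while lysine methyltransferases and demethylases set marks of active genes (H3K4, H3K36, H3K79) or silent ones (H3K9, H3K27). In blood formation Dnmt3a, Tet2, Asxl1 and the subunits of Polycomb repressive complex 2 are known for mutations that alter stem cell and myeloid growth in humans, and Bmi1 is known for keeping mouse blood stem cells self-renewing.

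The deposited values are log2, with array medians from 2.82 to 2.88. Correlations over all probe sets were 0.996 to 0.997 within the groups and 0.978 to 0.982 between them. Hdc, on which cells were sorted, was higher in GFP_plus by 0.82. Itgam, which encodes CD11b, differed by 0.26 (adjusted p = 0.0745, limma), and Ly6g and Ly6c1, of the Gr1 antigens, had no probe set of their own. Monocyte markers were lower in GFP_plus for 18 of 19 tested, with a summed signal of 14.51 to 14.56 in GFP_plus and 16.41 to 16.43 in GFP_min (log2 of the sum). Markers of dendritic cells and MHC class II presentation were lower for 10 of 11 (8.03 to 8.22 against 11.03 to 11.23). Primary granule genes were higher for 8 of 9 (14.27 to 14.46 against 13.86 to 13.93), and basophil and mast cell genes for 7 of 9 (9.41 to 9.63 against 8.04 to 8.20). The remaining primary granule gene, Ctsc, was lower by 3.01 (-3.01). In the basophil and mast cell list Il3ra was lower by 0.37 (-0.37) and Hgf was not called (-0.04). Mature neutrophil genes were higher for 11 of 17 (17.68 to 17.74 against 17.55 to 17.59). Of 3 tested eosinophil genes 2 were higher and 1 lower (8.68 to 8.99 against 7.28 to 7.52). Prg2 and Siglecf were higher by 3.34 and 1.26, Rnase2a was lower by 1.03 (-1.03), and Epx and Prg3 were below the level filter. All 3 tested erythroid genes were higher (9.50 to 9.68 against 8.71 to 8.82), while Hba-a1, Klf1 and Alas2 were below the filter. This sum rests mainly on Tfrc (9.52 in GFP_plus, 8.71 in GFP_min). Car1 (3.03 and 2.75) and Car2 (3.90 and 3.25) were dim in both groups. Of 5 tested T and NK cell genes 1 was higher and 2 were lower (9.38 to 9.76 against 8.36 to 8.83). Nkg7, which is also in the primary granule list, was higher by 2.10, Gzma was lower by 1.90 (-1.90) and Klrd1 by 0.84 (-0.84), and Cd3e and Cd3g were below the filter. Of 7 tested B cell genes 1 was higher (Cd72, 0.43) and 1 lower (Cd79b, -0.71), with sums of 6.52 to 6.73 against 6.74 to 6.84 and Pax5 below the filter. Cpa3, Fcer1a and Car1 passed the level filter only through their GFP_plus arrays. Cd209a, Irf4, Rnase2a and Siglech passed it only through their GFP_min arrays. The filter itself thus favoured the direction of these genes. In such sorted bulk samples, fewer cells of a type and less RNA per cell cannot be told apart. The part of these cell type markers in the differences below was not tested. The gap between the 3' and 5' probe sets of Gapdh, a sign of RNA quality, was 0.65, 0.59 and 0.66 in GFP_plus and 0.37, 0.32 and 0.26 in GFP_min (exact two-sided permutation p = 0.1, the smallest that 3 arrays against 3 allow). For beta-actin it was 0.90, 0.82 and 0.88 against 0.83, 0.79 and 0.80 (exact p = 0.2).

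The comparison asks which chromatin enzymes set GFP_plus myeloid cells apart from GFP_min cells of the same sort. On the deposited scale the transcripts of most enzymes differed little between the groups, and a few moved strongly and in opposite directions. The acetyltransferase gene Kat2a was 3.65-fold lower in GFP_plus, and the H3K9 methyltransferase gene Ehmt2, the demethylase gene Kdm2b and the arginine methyltransferase gene Prmt1 were 2.36-fold, 2.24-fold and 1.88-fold lower. The deacetylase gene Hdac4 and the H3K27 methyltransferase gene Ezh1 were 1.83-fold and 1.79-fold higher. On their brightest probe sets and the deposited scale, Dnmt1, Ezh2, Eed, Kdm1a, Kdm3b and Crebbp each differed by 0.10 or less in log2 units, though another probe set was called higher for Crebbp (0.36) and lower for Kdm1a (-0.49).

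A gene was called where limma's p, adjusted after Benjamini-Hochberg across every tested probe set, was under 0.05. By this rule 13 of the 53 tested members were higher in GFP_plus (24.5%) and 10 were lower (18.9%). Of all 10810 tested genes, 21.0% were higher and 27.6% were lower, so the members' shares lay near this background. In 30 members (56.6%) the 3 arrays of one group lay wholly above those of the other, against 59.3% of all tested genes. The median difference was 0.014 over the members and 0.0023 over all tested genes, and the median absolute difference was 0.21 and 0.30. Only 3 members changed by at least 1 log2, all lower in GFP_plus (5.66% of the members, against 10.3% of all tested genes in either direction).

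Writers and erasers taken apart gave like counts. Of 26 tested writers, 7 were higher (26.9%) and 6 lower (23.1%), with a median difference of 0.0019. Among 27 tested erasers 6 rose (22.2%) and 4 fell (14.8%), and the median was 0.014. Of all tested genes, 21.0% were higher and 27.6% lower. The plot of all differences by role shows calls in both directions on either side. Summed signal, to which bright genes add most, was 13.65 to 13.70 in GFP_plus and 13.59 to 13.61 in GFP_min for writers (log2 of the sum). For erasers it was 13.73 to 13.80 in GFP_plus and 13.56 to 13.62 in GFP_min. The groups did not overlap in either sum. Kdm6b, the brightest eraser, averaged 11.64 in GFP_plus and 11.07 in GFP_min, and the bright writer Ep300 10.96 and 10.63. With such weight on bright genes, the sums do not show a rise of most members. Sums of the other modifying enzymes (15.12 to 15.15 against 14.91 to 14.92) and of partner subunits and readers (14.87 to 14.93 against 14.82 to 14.84) did not overlap either. Those over all tested genes did (22.796 to 22.805 against 22.800 to 22.803). These sums and medians hold on the deposited scale.

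**Figure D1:**
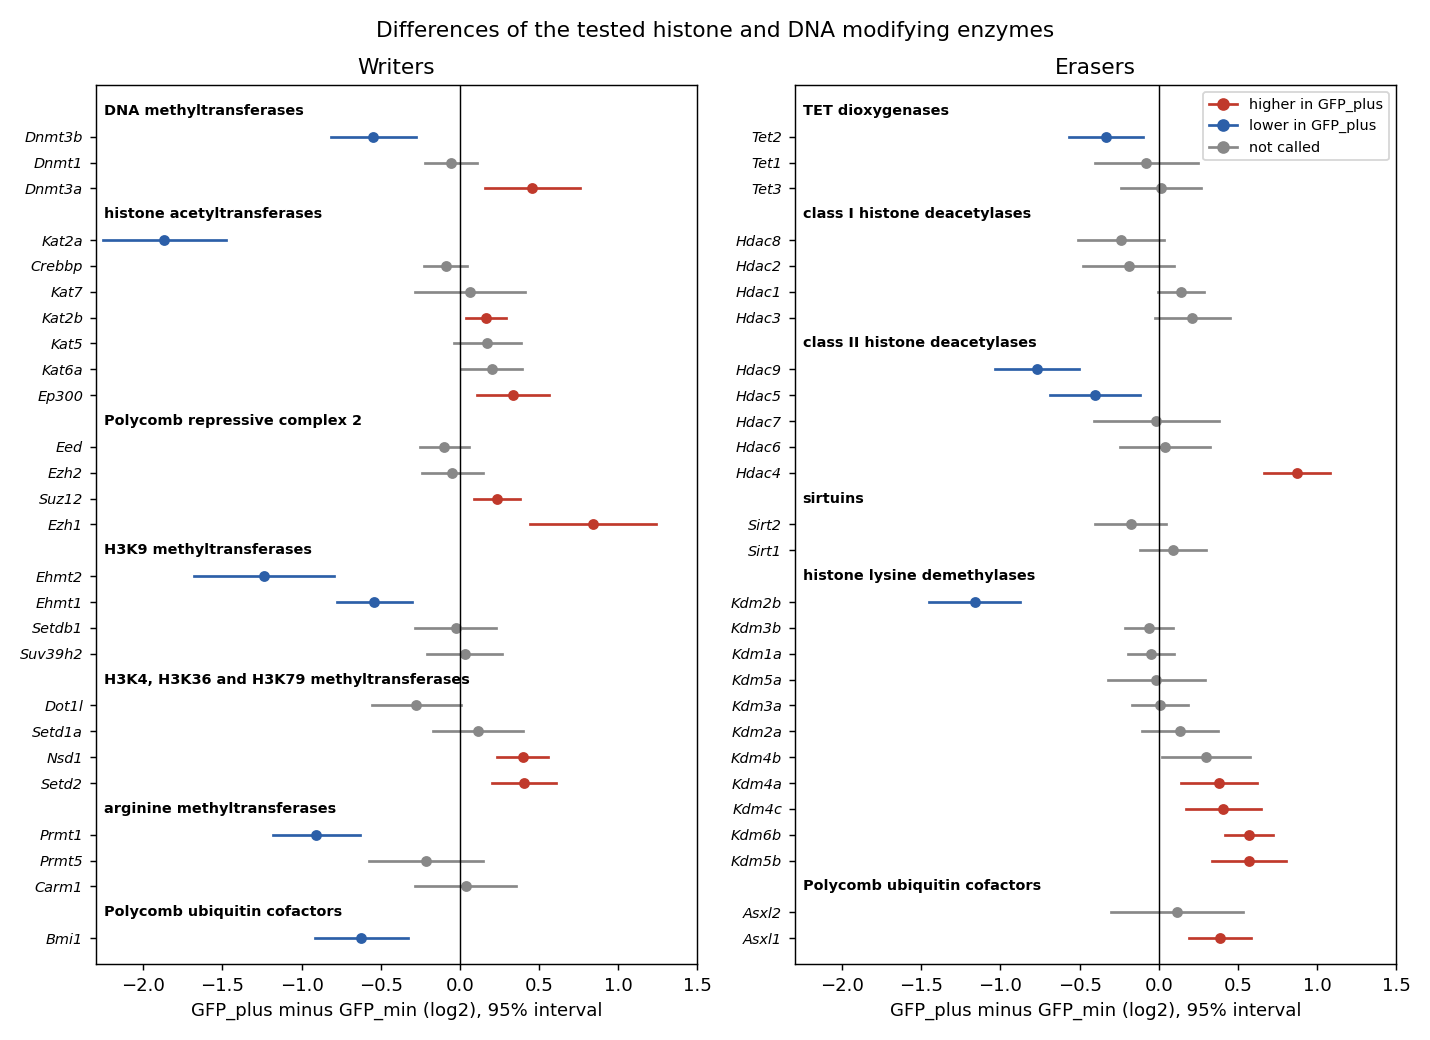
GFP_plus minus GFP_min on the log2 scale for the 53 tested members, writers left and erasers right, in role groups. Points are limma estimates and bars their unadjusted 95% intervals, red for members higher in GFP_plus, blue for lower and grey for not called. Kat2a, at -1.87, lies farthest from 0 and Hdac4, at 0.87, is the highest.

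The calls depend on how the arrays are put on one scale. Centring on the median of the tested probe sets adds 0.20 to every difference, centring on 45 ribosomal protein genes adds 0.53, and centring on the bacterial poly-A control RNAs takes off 0.41 (-0.41). Members called higher then numbered 20, 41 and 2, and members called lower 8, 4 and 29. Because each of these centrings adds a constant to every difference, the members' median stayed 0.012 above the median of all tested genes by construction. Of the 23 called members, 6 kept their call and direction under all 3: Hdac4 and Ezh1 upward, and Kat2a, Ehmt2, Kdm2b and Prmt1 downward. These 6 also kept it without any 1 array. The directions given for the other 17 hold on the deposited scale.

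**Figure D2:**
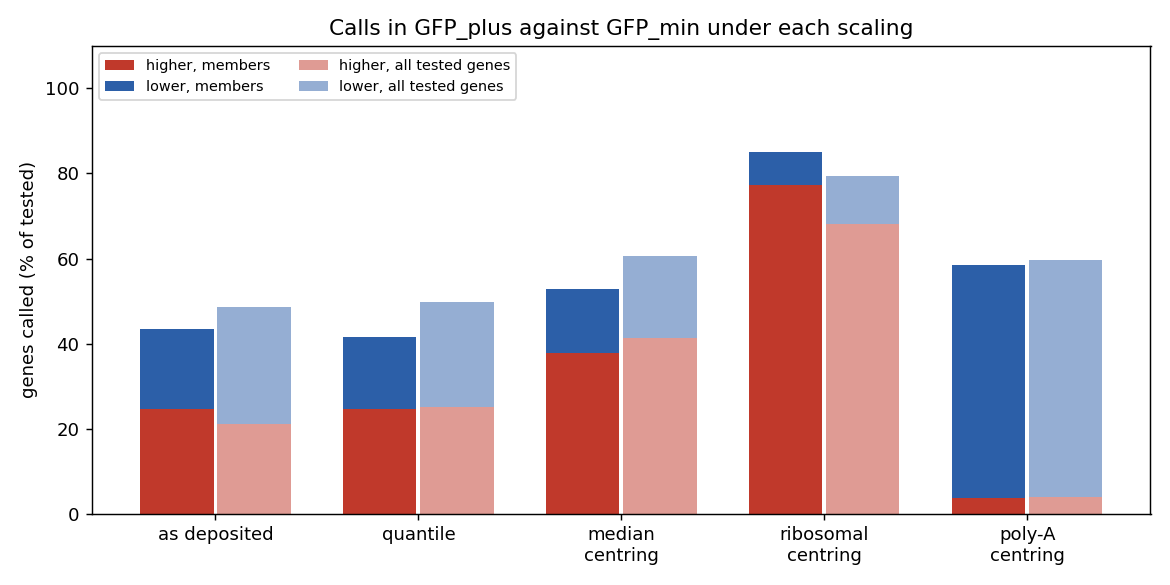
Percent of tested genes called higher (red) and lower (blue) in GFP_plus under 5 scalings, stacked, with solid bars for the 53 tested members and pale bars for all 10810 tested genes. The members' bars follow those of all genes, with 24.5% higher on the deposited scale, 77.4% with ribosomal centring and 3.77% with poly-A centring.

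Among the DNA methyltransferases, the 2 de novo enzymes moved in opposite directions and the maintenance enzyme did not pass. Dnmt3a was at 7.43, 7.47 and 7.12 in GFP_plus replicates a, b and c, against 6.92, 6.73 and 6.99 in GFP_min, a rise of 0.46 (SE 0.13, limma adjusted p = 0.0197). All GFP_plus arrays lay above all GFP_min arrays, and 4 of its 5 tested probe sets were called higher, by 0.40 to 0.96. Its call was lost without GFP_plus replicate a (0.41, adjusted p = 0.0769), GFP_plus replicate b (0.39, 0.0648) or GFP_min replicate b (0.38, 0.0566). Dnmt3b was at 2.94, 3.11 and 2.74 in GFP_plus, against 3.49, 3.54 and 3.39 in GFP_min, a fall of 0.55 (-0.55, SE 0.12, adjusted p = 0.00454). Both groups were dim, and GFP_plus replicate c lay under the median of its array. Dnmt1, which copies methylation onto new DNA strands, averaged 10.31 ± 0.10 in GFP_plus and 10.36 ± 0.07 in GFP_min (mean ± SD, n = 3 each, log2). Its difference of -0.06 had a 95% interval of -0.22 to 0.11, and none of its 3 probe sets was called.

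Of the TET dioxygenases, Tet2 was at 9.19, 8.85 and 9.20 in GFP_plus, against 9.37, 9.50 and 9.36 in GFP_min, a difference of -0.33 (SE 0.11, limma adjusted p = 0.0274). The groups did not overlap, but the other tested probe set of Tet2 differed by 0.21 the other way (adjusted p = 0.108). The call was lost without GFP_plus replicate b (-0.22, adjusted p = 0.0709), GFP_min replicate a (-0.35, 0.0536), b (-0.29, 0.0763) or c (-0.36, 0.0506), and the sign turned with ribosomal centring (0.19). Tet1 (-0.08, 95% interval -0.40 to 0.25) and Tet3 (0.01, -0.24 to 0.27) were dim in both groups.

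None of 4 class I histone deacetylases passed the threshold. Hdac1 and Hdac2 are the catalytic cores of the Sin3 and NuRD corepressor complexes and Hdac3 that of NCoR. Hdac1 differed by 0.14, Hdac3 by 0.21, Hdac2 by -0.19 and Hdac8 by -0.24. In Hdac1, Hdac3 and Hdac8 the groups did not overlap although the adjusted p-values were 0.105, 0.132 and 0.139. For Hdac1 the arrays read 9.78, 9.78 and 9.81 in GFP_plus against 9.67, 9.64 and 9.64 in GFP_min.

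Class II deacetylases, which shuttle between cytoplasm and nucleus and bind MEF2 transcription factors in the class IIa subgroup, split. Hdac4 was at 9.13, 9.24 and 9.10 in GFP_plus, against 8.18, 8.25 and 8.42 in GFP_min, a rise of 0.87 (SE 0.09, limma adjusted p = 5.36e-05). Every GFP_plus array was above every GFP_min array, and all 3 tested probe sets were called higher, by 0.31 to 0.89. Hdac9 was at 3.54, 3.42 and 3.37 in GFP_plus, against 4.15, 4.20 and 4.29 in GFP_min, and fell by 0.77 (SE 0.12, adjusted p = 0.000552). Hdac5 was at 6.17, 6.17 and 6.09 in GFP_plus, against 6.56, 6.68 and 6.39 in GFP_min, a fall of 0.40 (-0.40, SE 0.13, adjusted p = 0.0271). Hdac9 was low on every array of both groups. The Hdac5 call was lost without GFP_plus replicate a (-0.42, adjusted p = 0.0638), b (-0.41, 0.0518) or c (-0.38, 0.0683), or GFP_min replicate a (-0.39, 0.0733) or b (-0.33, 0.0780). Hdac7 (-0.02) and the tubulin deacetylase Hdac6 (0.04) did not pass. Of the NAD-dependent sirtuins, Sirt1 differed by 0.09 (95% interval -0.12 to 0.30) and Sirt2 by -0.18 (-0.41 to 0.05), with overlapping groups.

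The paralogous acetyltransferases of SAGA-type coactivator complexes, Kat2a (GCN5) and Kat2b (PCAF), were called in opposite directions on the deposited scale. Kat2a was at 4.04, 4.28 and 3.72 in GFP_plus, against 5.74, 6.07 and 5.83 in GFP_min, a fall of 1.87 (-1.87, SE 0.17, limma adjusted p = 2.09e-05). Every GFP_min array lay well above every GFP_plus array. A dimmer Kat2a probe set averaged 3.11 in GFP_plus and 3.15 in GFP_min (-0.04, 95% interval -0.34 to 0.26, adjusted p = 0.826), close to the array medians in both groups. Kat2b was at 10.69, 10.64 and 10.71 in GFP_plus, against 10.50, 10.54 and 10.51 in GFP_min, a difference of 0.16 (SE 0.06, adjusted p = 0.0398). The arrays of each group lay close together (SD 0.03 in both), and the call was lost without GFP_plus replicate a (0.16, adjusted p = 0.119) or c (0.15, 0.0983), or GFP_min replicate a (0.15, 0.114) or c (0.16, 0.110). Ep300, the coactivator p300, was at 10.86, 11.17 and 10.85 in GFP_plus, against 10.78, 10.48 and 10.61 in GFP_min, a difference of 0.34 (SE 0.10, adjusted p = 0.0221). It lost its call without GFP_plus replicate b (0.23, adjusted p = 0.0623), GFP_min replicate b (0.26, 0.0708) or GFP_min replicate c (0.33, 0.0577). Crebbp, the paralog of Ep300, differed by -0.09 on its brightest probe set (95% interval -0.23 to 0.05), while another of its 4 probe sets was called higher by 0.36 (adjusted p = 0.00194). The MYST family members Kat5 (0.17), Kat6a (0.20) and Kat7 (0.06) did not pass.

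Polycomb repressive complex 2 methylates H3K27, with Ezh1 or Ezh2 as its catalytic subunit. Ezh1 was at 6.47, 6.44 and 6.69 in GFP_plus, against 5.84, 5.94 and 5.31 in GFP_min, a rise of 0.84 (SE 0.18, limma adjusted p = 0.00372). GFP_min replicate c was the lowest array, and without it the rise was 0.65. The other tested probe set of Ezh1 was higher by 0.49 but not called (adjusted p = 0.0580). Ezh2, the form known for dividing cells, averaged 9.37 ± 0.13 in GFP_plus and 9.42 ± 0.02 in GFP_min, and the 95% interval of its difference ran from -0.24 to 0.14. The scaffold subunit gene Suz12 was at 10.23, 10.18 and 10.20 in GFP_plus, against 10.01, 9.91 and 9.99 in GFP_min, a difference of 0.24 (SE 0.06, adjusted p = 0.0136). Of its 5 tested probe sets 3 were called, all higher, and its call was lost without GFP_plus replicate a (0.22, adjusted p = 0.0585). Eed, which binds the finished H3K27 mark, differed by -0.10 (95% interval -0.25 to 0.06). Outside the members, the accessory subunit gene Phf1 was 3.03-fold higher (9.40 in GFP_plus, 7.80 in GFP_min, adjusted p = 7.82e-07) and Jarid2 1.91-fold lower (8.62 and 9.55, adjusted p = 4.16e-05).

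Members tied to histone H2A ubiquitin also split. Bmi1, a subunit of Polycomb repressive complex 1, which writes this mark, was at 5.95, 6.29 and 6.10 in GFP_plus, against 6.68, 6.74 and 6.78 in GFP_min, a fall of 0.62 (-0.62, SE 0.13, limma adjusted p = 0.00346). Its dimmer probe set averaged 3.92 in GFP_plus and 3.91 in GFP_min. Asxl1, cofactor of the deubiquitinase that removes the mark, was at 10.41, 10.25 and 10.32 in GFP_plus, against 9.89, 10.11 and 9.83 in GFP_min, a rise of 0.39 (SE 0.09, adjusted p = 0.00510). The groups of both genes did not overlap, and Asxl1 was called on 2 of its 3 probe sets. Its paralog Asxl2 differed by 0.11 (95% interval -0.30 to 0.53).

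**Figure D3:**
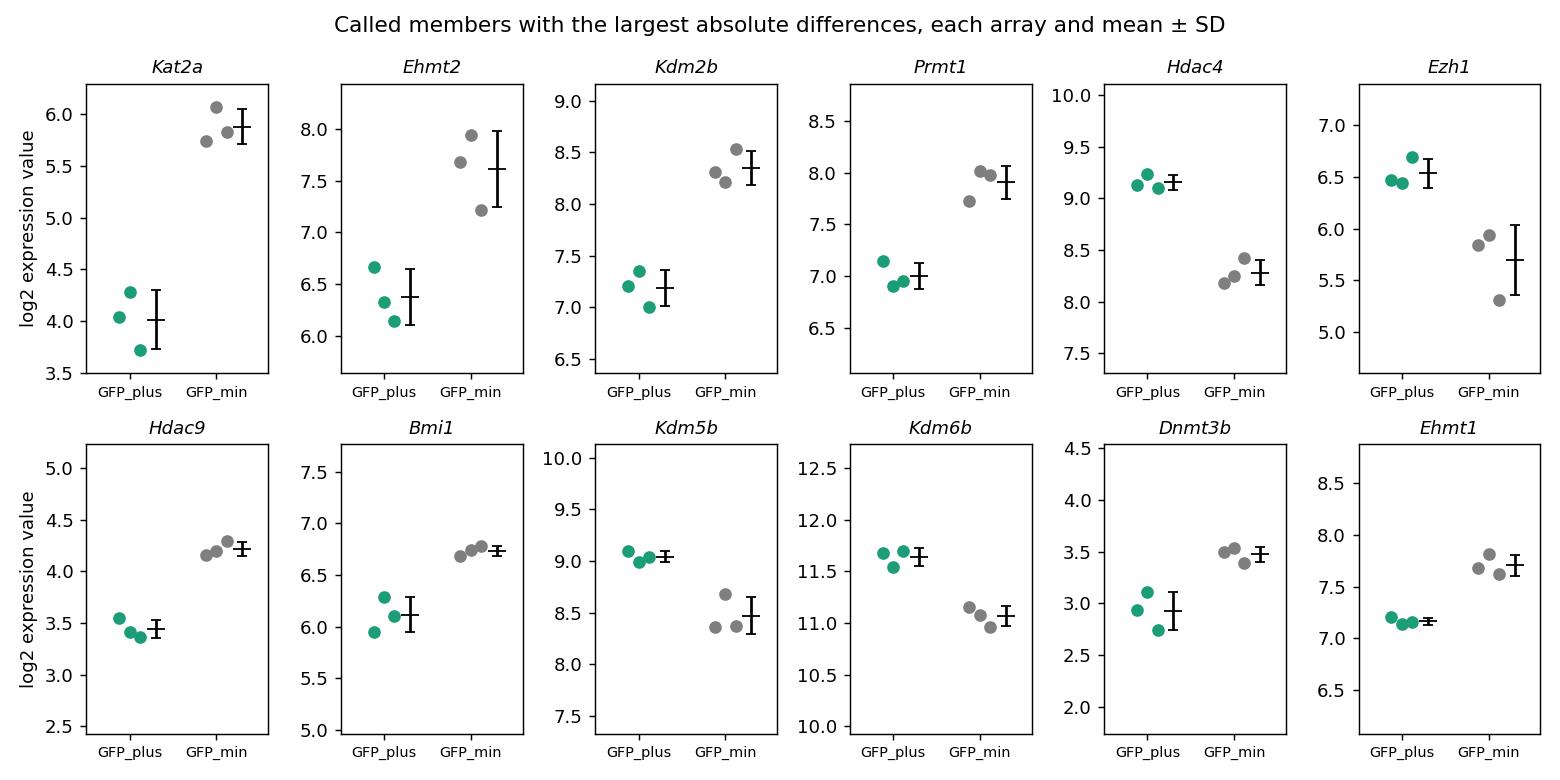
Log2 expression values of the 12 called members with the largest absolute differences, a point for each array and mean ± SD beside it, GFP_plus left and GFP_min right in each panel. Each panel spans the same range of log2 units. The groups do not overlap in any panel, which largely follows from choosing called members with large differences. Of all tested genes, 59.3% did not overlap. The gap is widest for Kat2a (3.72 to 4.28 in GFP_plus, 5.74 to 6.07 in GFP_min).

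Of the H3K9 methyltransferases, which set marks of silent chromatin, the partners Ehmt1 (GLP) and Ehmt2 (G9a) fell together. They work as a heterodimer on H3K9 mono- and dimethylation. Ehmt2 was at 6.66, 6.32 and 6.14 in GFP_plus, against 7.68, 7.94 and 7.22 in GFP_min, a fall of 1.24 (-1.24, SE 0.20, limma adjusted p = 0.000672). Ehmt1 was at 7.20, 7.14 and 7.16 in GFP_plus, against 7.68, 7.82 and 7.62 in GFP_min, a fall of 0.54 (-0.54, SE 0.11, adjusted p = 0.00224). The groups of both genes were apart, and both calls held without any 1 array. With ribosomal centring Ehmt2 kept its call, while Ehmt1 went to -0.01 (adjusted p = 0.914). The H3K9 trimethylation enzymes Setdb1 (-0.03, 95% interval -0.28 to 0.23) and Suv39h2 (0.03, -0.21 to 0.27) did not pass.

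Of 4 methyltransferases of active chromatin, Setd2 and Nsd1 were called higher on the deposited scale, a count too small to set against the 21.0% of all tested genes. Setd2, which trimethylates H3K36 behind elongating polymerase, was at 8.66, 8.79 and 8.86 in GFP_plus, against 8.41, 8.29 and 8.39 in GFP_min, a rise of 0.41 (SE 0.09, limma adjusted p = 0.00501). Nsd1, which dimethylates the same residue, was at 9.77, 9.89 and 9.90 in GFP_plus, against 9.41, 9.47 and 9.48 in GFP_min, a rise of 0.40 (SE 0.07, adjusted p = 0.00146). Both held without any 1 array and with median centring, but with poly-A centring Setd2 was at 0.0016 and Nsd1 at -0.01. The H3K79 enzyme Dot1l (-0.28, adjusted p = 0.101) and the H3K4 enzyme Setd1a (0.11, adjusted p = 0.490) did not pass. A dimmer Dot1l probe set differed by 0.31 the other way (adjusted p = 0.112). Of the arginine methyltransferases, Prmt1, the main source of asymmetric dimethylarginine, was at 7.15, 6.90 and 6.95 in GFP_plus, against 7.73, 8.02 and 7.98 in GFP_min, a fall of 0.91 (-0.91, SE 0.12, adjusted p = 0.000236). Prmt5, which makes symmetric dimethylarginine, differed by -0.21 (95% interval -0.58 to 0.15) and Carm1 by 0.04 (-0.28 to 0.36), both dim.

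Of 11 lysine demethylases 4 were called higher and 1 lower on the deposited scale, where 21.0% of all tested genes were higher and 27.6% lower. Kdm6b, which removes H3K27 methylation and is known for its induction in activated macrophages, was at 11.68, 11.54 and 11.69 in GFP_plus, against 11.16, 11.08 and 10.97 in GFP_min, a rise of 0.57 (SE 0.07, limma adjusted p = 9.30e-05). Kdm5b, an H3K4 demethylase, was at 9.10, 8.99 and 9.04 in GFP_plus, against 8.36, 8.68 and 8.37 in GFP_min, a rise of 0.57 (SE 0.10, adjusted p = 0.00153). All 3 tested probe sets of each were called higher, up to 0.98 for Kdm6b and 1.30 for Kdm5b, although with poly-A centring both genes lay at 0.17 and were not called. Kdm2b, the H3K36 demethylase that brings a variant Polycomb complex to CpG islands, was at 7.20, 7.35 and 7.00 in GFP_plus, against 8.31, 8.21 and 8.53 in GFP_min, a fall of 1.16 (-1.16, SE 0.13, adjusted p = 6.14e-05). Both of its probe sets were called lower, the other by 1.62 (-1.62). Its paralog Kdm2a differed by 0.13 on its brightest probe set (adjusted p = 0.339), yet 3 of its 5 tested probe sets were called higher, by 0.56, 0.77 and 0.83. The gene's call thus turned on which probe set stood for it.

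The H3K9 demethylases of the Kdm4 family differed by 0.38 in Kdm4a, 0.41 in Kdm4c and 0.30 in Kdm4b on the deposited scale, with adjusted p-values of 0.0158, 0.0113 and 0.0782 by limma. Kdm4a lost its call without GFP_plus replicate a (0.32, adjusted p = 0.0736), and with poly-A centring it turned to -0.02. Kdm3a (0.01, 95% interval -0.17 to 0.19), Kdm3b (-0.06, -0.21 to 0.09), Kdm5a (-0.01, -0.32 to 0.29) and Kdm1a (-0.05, -0.19 to 0.10) did not pass. Kdm1a, known as LSD1, had a dimmer probe set that was called lower (-0.49, adjusted p = 0.0290).

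Probe sets of a gene read different stretches of its transcripts, mostly near the 3' end. The members had 129 probe sets in all, of which 102 were tested, 30 called higher and 12 called lower. The share over all tested probe sets was not computed, so these counts show no lean of the members. Of 28 members with more than 1 tested probe set, 4 had all of them called alike (Hdac4, Kdm2b, Kdm5b and Kdm6b), 11 had none called and 13 had some called and some not. In 0 members were probe sets called in opposite directions.

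**Figure D4:**
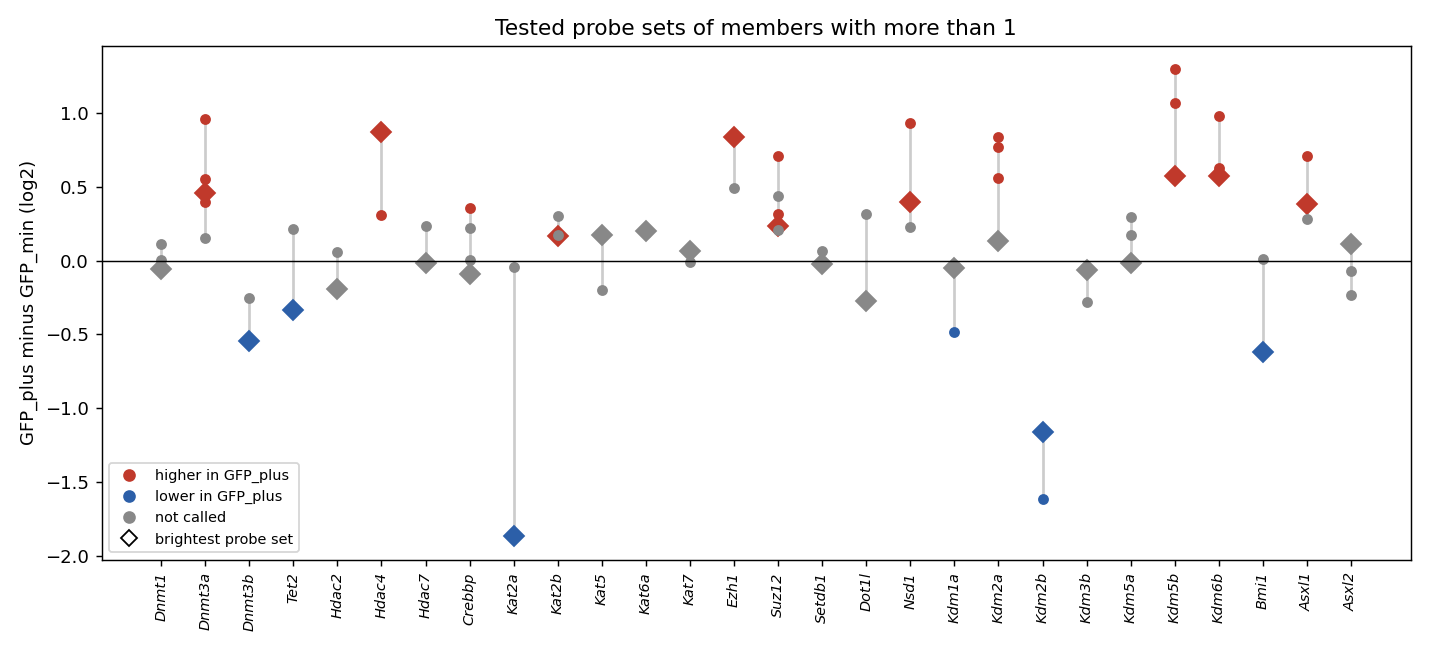
GFP_plus minus GFP_min (log2) of each tested probe set for the 28 members with more than 1. Diamonds mark the brightest probe set of a gene, which stood for it, and colours give the call (red higher, blue lower, grey not called). Kdm2a and Crebbp have a grey diamond below red points, and Kdm1a a grey diamond above a blue point.

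A shift of a whole array cancels in the difference between 2 genes on that array, so related members were also set against each other within arrays. The 7 pairs were chosen after their values were seen. Kat2a minus Kat2b was -6.66, -6.36 and -6.99 in GFP_plus, against -4.76, -4.47 and -4.68 in GFP_min, so Kat2a lost 2.03 relative to Kat2b (-2.03). Hdac4 gained 1.64 relative to Hdac9 and 1.28 relative to Hdac5. Hdac9 was dim in GFP_plus (3.37 to 3.54), which limits the value of 1.64. Dnmt3a gained 1.00 relative to Dnmt3b (4.49, 4.36 and 4.38 in GFP_plus, 3.43, 3.19 and 3.60 in GFP_min), although Dnmt3b lay near the array medians in GFP_plus, which limits this value. Ezh1 gained 0.89 relative to Ezh2 (-2.95, -3.03 and -2.52 in GFP_plus, -3.60, -3.46 and -4.11 in GFP_min). Kdm2a gained 1.30 relative to Kdm2b, and Ehmt1 gained 0.70 relative to its partner Ehmt2, which fell further. Because of how the pairs were chosen these values are a description, without a test. Such a difference shows unequal change of 2 genes, not which of them changed.

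**Figure D5:**
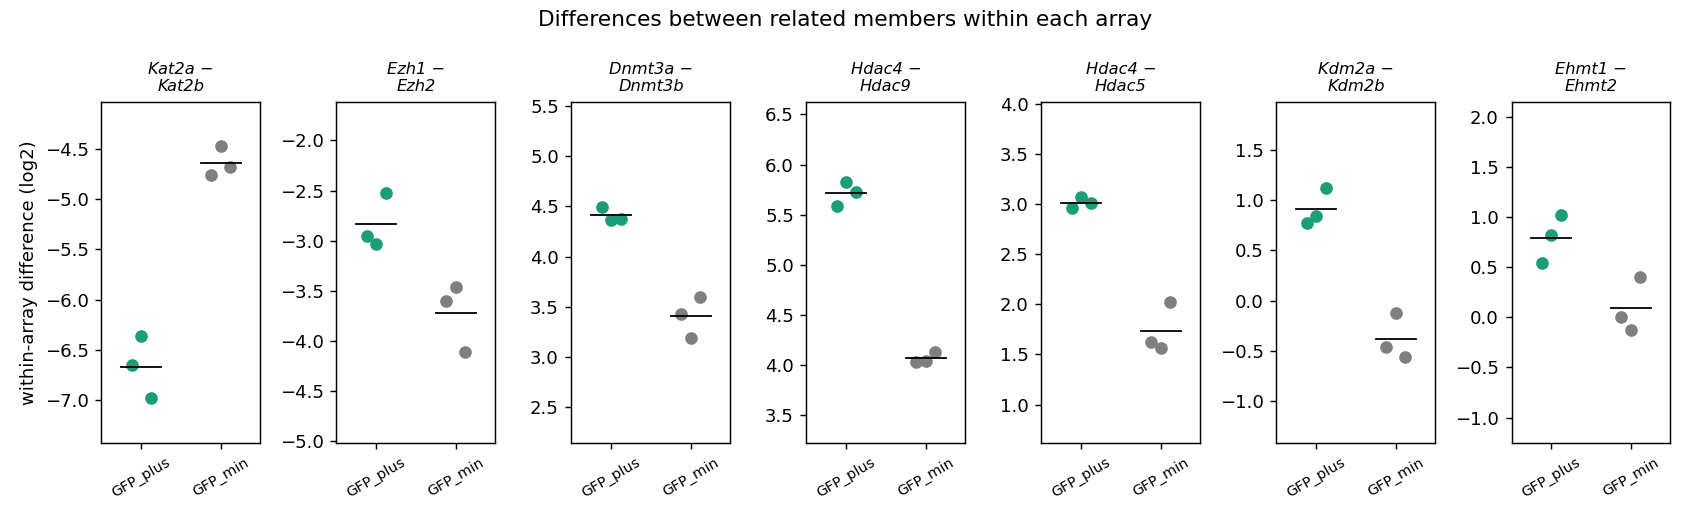
Difference between the log2 values of 2 related members within each array, a point for each array and a line at the mean, GFP_plus left and GFP_min right. The pairs were chosen after their values were seen, and of the 7 the groups are farthest apart for Kat2a minus Kat2b (mean -6.67 in GFP_plus and -4.64 in GFP_min).

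GFP_min replicate b, whose description differs from its label, was left out in turn like the other arrays. Without it 11 members were higher and 8 lower. Dnmt3a, Tet2, Hdac5 and Ep300 lost their calls, with the values given above.

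Promoters are shown for the 2 largest falls and the 2 largest rises among called members with a single promoter window in the RefSeq table (GRCm38), to set them side by side. Each is the 250 bases before the annotated start, 5′ to 3′ on the gene's strand. Capitals mark GGGCGG (the GC box bound by SP factors), CCAAT (the CCAAT box), CGGAAG (an ETS factor core) and CACGTG (an E-box), each searched on both strands. The windows lie on the minus strand at chr11:100712468-100712717 (Kat2a), chr7:44986421-44986670 (Prmt1), chr1:92180342-92180591 (Hdac4) and chr11:101226464-101226713 (Ezh1).
Kat2a: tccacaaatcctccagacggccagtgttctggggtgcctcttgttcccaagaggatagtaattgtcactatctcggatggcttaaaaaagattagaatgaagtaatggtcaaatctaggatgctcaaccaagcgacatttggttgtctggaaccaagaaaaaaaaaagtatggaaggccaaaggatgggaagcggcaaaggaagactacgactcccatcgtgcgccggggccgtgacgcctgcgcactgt
Prmt1: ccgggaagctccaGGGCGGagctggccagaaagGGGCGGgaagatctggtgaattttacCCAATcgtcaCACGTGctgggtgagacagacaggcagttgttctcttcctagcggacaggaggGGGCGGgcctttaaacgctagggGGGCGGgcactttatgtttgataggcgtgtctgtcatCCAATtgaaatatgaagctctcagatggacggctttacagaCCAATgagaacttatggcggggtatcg
Hdac4: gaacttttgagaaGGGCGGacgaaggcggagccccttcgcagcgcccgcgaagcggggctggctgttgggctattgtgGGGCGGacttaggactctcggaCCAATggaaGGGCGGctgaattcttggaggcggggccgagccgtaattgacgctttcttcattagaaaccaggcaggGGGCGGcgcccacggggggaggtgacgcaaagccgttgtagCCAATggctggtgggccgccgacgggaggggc
Ezh1: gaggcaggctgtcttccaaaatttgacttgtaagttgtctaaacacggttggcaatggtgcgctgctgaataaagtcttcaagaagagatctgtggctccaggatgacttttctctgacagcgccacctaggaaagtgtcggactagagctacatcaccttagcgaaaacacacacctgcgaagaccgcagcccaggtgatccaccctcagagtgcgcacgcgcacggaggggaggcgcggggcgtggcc
Motifs did not follow the direction of change in these 4. Prmt1, which fell, and Hdac4, which rose, each held 4 GC boxes, with 3 CCAAT boxes and 1 E-box in Prmt1 and 2 CCAAT boxes in Hdac4. The windows of Kat2a, which fell, and Ezh1, which rose, held 0 matches to any of the 4 motifs. CpG pairs numbered 11 in Kat2a, 13 in Prmt1, 23 in Hdac4 and 14 in Ezh1.

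Across the members, 45 genes had 64 promoter windows. A GC box was found in 60.9% of them, against 32.7% of all 32851 windows of the table, a CCAAT box in 34.4% against 33.8%, the ETS core in 15.6% against 13.6% and the E-box in 12.5% against 6.02%. The median CpG count was 18.5 in members' windows and 6 in all windows. The windows of the table cover 27025 genes, tested here or not, so they are not the background of tested genes used above. Among members higher in GFP_plus a GC box was present in 9 of 15 windows, among members lower in 11 of 15 and among members not called in 16 of 30. For members higher and lower, the CCAAT box was in 4 and 4 windows, the ETS core in 3 and 0 and the E-box in 2 and 4. These are descriptions of letters in a window, without a test, and no binding was measured.

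Other modifying enzymes, outside the members, were 55 genes of the same kinds, of which 51 were tested. In GFP_plus 18 rose (35.3%) and 6 fell (11.8%), beside 21.0% and 27.6% of all tested genes, and their median difference was 0.04. With poly-A centring the counts turned to 1 higher and 25 lower. The named ones with the smallest adjusted p were the arginine methyltransferase gene Prmt3, which was 3.80-fold lower (6.41 in GFP_plus, 8.34 in GFP_min, limma adjusted p = 4.49e-07), and the H3K9 methyltransferase gene Setdb2, 3.50-fold lower (4.09 and 5.90, adjusted p = 9.75e-06). Rnf40, a subunit of the H2B ubiquitin ligase, was 2.07-fold higher (6.54 and 5.49, adjusted p = 0.000105). Padi4, which citrullinates histones and is also a neutrophil marker, was higher by 0.43. The 5 Kmt2 genes (MLL-family H3K4 methyltransferases and their relative Kmt2e), named after their values were seen, differed by 0.30 to 0.46 on the deposited scale and were all called higher. Without GFP_plus replicate a or b, or without any 1 GFP_min array, 4 of them were called. With poly-A centring they lay between -0.10 and 0.06 and 0 were called.

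Partner subunits and readers of marks were tested for 57 of 67 genes, and 11 were higher (19.3%) and 12 lower (21.1%). All tested genes gave 21.0% higher and 27.6% lower. Besides Phf1 and Jarid2, Pcgf3, a core subunit of a variant Polycomb complex, was 2.47-fold lower (5.17 in GFP_plus, 6.47 in GFP_min, limma adjusted p = 7.90e-05) and Brd3, a reader of acetylated histones, was 1.52-fold higher (9.92 and 9.32, adjusted p = 0.000108). Proliferation genes, with which Dnmt1 and Ezh2 are known to rise, were called higher for 5 of 29 (17.2%) and lower for 3 (10.3%). Their median difference was 0.11. Rrm2 was higher by 0.43 and Mcm2 by 0.51, while Cdt1 was lower by 0.43 (-0.43) and Ccnb2 by 0.36 (-0.36) on the deposited scale. The last 2 turned to 0.10 and 0.16 with ribosomal centring.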

How the data were processed

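The 6 sorted RNA samples were biotin-labelled by 3' in vitro transcription and hybridised to mouse Affymetrix arrays, per the labels' protocols. The deposited series table holds a log2 value for each of 45101 probe sets, with GCRMA named by the submitters' processing notes. For its version and settings, the sources used here give nothing. The log2 scale was inferred from the size of the values.

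Gene names came from the platform annotation at GEO, with symbols updated through the RefSeq table of GRCm38.p6. Leaving out 64 control probe sets, those above the median of their own array on at least 3 arrays were tested (22956), and a gene stood for by its tested probe set with the highest mean. GFP_plus minus GFP_min was fitted on all of them with limma 3.58.1 in R 4.3.3 (eBayes with an intensity trend). Adjusted p-values are Benjamini-Hochberg over all tested probe sets. The fit was tested on simulated data. The RNA quality gaps were tested by exact permutation, and within-array pairs are described without a test. The number of arrays limits the precision.

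The members and gene lists were chosen with earlier results of these data known. In each role group the 3 called members with the largest difference, and every called member past 1 log2, are given by array. In the other lists up to 4 with the smallest adjusted p are named. Alternatives changed the filter, variance model, array weights, scaling, probe set, size threshold, replicate letter as a block, and each array left out in turn.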

Additional observations from a re-analysis of the deposited data

How the results depend on the processing

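On the deposited scale the counts of members called higher and lower stayed within 1.5 times of 13 and 10 without any 1 array (9 to 12 and 8 to 9) and under the other filters, the variance model without a trend, array weights, quantile normalization and other choices of probe set. Requiring a difference of at least 1 log2 left 0 higher and 3 lower members, and 3 other modifying enzymes called in place of 24. Deviations of arrays with the same letter in the sample titles correlated at -0.18, -0.30 and -0.22 between the groups. With 3 arrays per group these values cannot show whether samples of a letter were paired. With the letter as a replicate block 8 members were higher and 8 lower. Members higher numbered 20, 41 and 2 with median, ribosomal and poly-A centring. Members lower numbered 4 with ribosomal and 29 with poly-A centring, and other modifying enzymes called numbered 44 with ribosomal centring. The median difference of writers was 0.20, 0.53 and -0.40 and that of erasers 0.22, 0.54 and -0.39 under these 3 centrings, each moving with the constant that the centring adds.

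Signs turned by construction where that constant exceeded the difference: in 17 members with ribosomal and 21 with poly-A centring. Of these, 2 (Dot1l and Prmt5) and 11 (Hdac1, Hdac3, Hdac6, Kat5, Kat6a, Kat7, Setd1a, Kdm2a, Kdm4b, Carm1 and Asxl2) were not called on either scale, and median centring turned 12 members, none of them called on either scale. For members called on at least 1 scale, with ribosomal centring the value was 0.47 for Dnmt1, 0.45 for Tet1, 0.19 for Tet2, 0.34 for Hdac2, 0.29 for Hdac8, 0.12 for Hdac5, 0.51 for Hdac7, 0.35 for Sirt2, 0.44 for Crebbp, 0.48 for Ezh2, 0.43 for Eed, 0.50 for Setdb1, 0.48 for Kdm1a, 0.46 for Kdm3b and 0.51 for Kdm5a, and outside the members 0.10 for Cdt1 and 0.16 for Ccnb2. With poly-A centring it was -0.39 for Tet3, -0.31 for Sirt1, -0.067 for Ep300, -0.24 for Kat2b, -0.17 for Suz12, -0.38 for Suv39h2, -0.0077 for Nsd1, -0.40 for Kdm3a, -0.023 for Kdm4a and -0.019 for Asxl1, and outside the members -0.078 for Kmt2a, -0.10 for Kmt2c, -0.041 for Kmt2d and -0.10 for Kmt2e. Crebbp turned to 0.36 when the probe set with the smallest adjusted p stood for it. Dnmt3b and Tet1 could not be fitted with the filter on all 6 arrays, which they do not pass. Signal near the array medians limits what can be seen in Dnmt3b, Tet1, Tet3, Hdac8, Suv39h2 and Prmt5, and in Hdac9 in GFP_plus.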
